A study of Mus musculus with 6 samples.

Results

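Retnla, Chil3, Arg1, Ear2, Il4ra and Il10 are genes tied to the alternative (type 2) activation of macrophages, and they were followed across the leukocytes of the irradiated mouse heart. They were taken by symbol from the 32285 genes listed in the files, and each of the 6 symbols had 1 row. The study profiled CD45+ cardiac cells of C57Bl6J mice by droplet single-cell RNA sequencing at day 28 in 6 libraries; CD45 is the surface protein that marks leukocytes. In 2 sham libraries the label gives the wild-type genotype, in 2 further wild-type libraries the heart had received a single fraction of 12 Gy from a small animal microirradiator, and in 2 libraries labelled STING knockout (titled "Tmem mice") the heart had received the same dose. No sham library with the knockout label was analysed here, so the genotypes were compared only after irradiation, and the radiation and genotype comparisons share the irradiated wild-type libraries. Nothing in the labels ties a library to its own animal, and every SD and p-value below therefore measures the spread between libraries, which may be technical. The targeted transcript, Tmem173, stood at 39.9 and 32.9 CPM (a count scaled to 1000000 UMIs in all of the cells summed) in sham, 45.5 and 41.8 after irradiation of wild-type hearts and 40.4 and 43.1 with the knockout label, so it did not separate the genotypes, and a 3′ tag need not lie in the part of a gene that was deleted.

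Interleukin-4 and interleukin-13 bind receptors that share the chain encoded by Il4ra, and these receptors signal through the transcription factor STAT6. In macrophages this pathway is known for inducing Retnla, which encodes the secreted protein RELMα, Chil3, which encodes the chitinase-like protein Ym1, and Arg1, the arginase that splits arginine into ornithine and urea. Ear2 encodes a ribonuclease of the eosinophil-associated family, and Il10 encodes an anti-inflammatory cytokine that signals through STAT3.

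The 6 genes are protein-coding and lie on 6 chromosomes of the mouse genome GRCm38: Retnla at chr16:48842551-48844461 (plus strand), Chil3 at chr3:106147554-106167564 (minus strand), Arg1 at chr10:24915221-24927484 (minus strand), Ear2 at chr14:44102654-44103534 (plus strand), Il4ra at chr7:125552120-125579474 (plus strand) and Il10 at chr1:131019845-131024974 (plus strand), by the GENCODE vM21 annotation. Promoter sequences in the RefSeq table (build GRCm38.p6, 250 bases before to 50 after the start site) matched 4 of the 6 genes, Retnla, Chil3, Ear2 and Il4ra. They were searched on both strands for the STAT6 palindrome (TTC and GAA spaced by 4 bases), the palindrome of other STAT factors (TTC and GAA spaced by 3 bases) and a C/EBP form (TTGC and AA spaced by 2 bases). Stretches of 120 bases are shown for Retnla, Chil3 and Ear2, because these 3 genes marked different cells; capitals mark the matches.
Retnla promoter, chr16:48842434-48842553, plus strand: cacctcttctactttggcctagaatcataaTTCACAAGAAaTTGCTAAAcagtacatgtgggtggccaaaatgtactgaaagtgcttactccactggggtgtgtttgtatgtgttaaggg
Chil3 promoter, chr3:106167647-106167766, minus strand: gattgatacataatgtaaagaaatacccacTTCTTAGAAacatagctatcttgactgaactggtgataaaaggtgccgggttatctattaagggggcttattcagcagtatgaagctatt
Ear2 promoter, chr14:44102534-44102653, plus strand: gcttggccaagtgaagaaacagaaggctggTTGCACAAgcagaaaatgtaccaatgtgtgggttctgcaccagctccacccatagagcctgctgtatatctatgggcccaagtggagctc

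The Retnla promoter held a STAT6 palindrome that begins 145 bases before the RefSeq start site and, 1 base after its end, a C/EBP form that begins 134 bases before it. Of all 32851 promoters in the table, 6.95% held the STAT6 palindrome and 10.8% the C/EBP form. The Chil3 promoter held the 3-base-spaced STAT palindrome, beginning 172 bases before the start site, a form found in 8.30% of promoters. The Ear2 promoter held only the C/EBP form, beginning 90 bases before the start site, and the Il4ra promoter held none of the 3. These are matches of letters and not measured binding. Because 3′ libraries count the ends of transcripts, the last 400 bases of each member were compared with all other annotated transcripts: 47.6% of the 31-base words of Ear2 and 21.1% of those of Chil3 also occur in another gene, the closest being Ear1 (42.7%) and Chil4 (19.6%). The other 4 members shared no such word. In the named classes Ear1 had 1 UMI and Chil4 none, and the sources used here do not give how reads that fit both copies were assigned. Whether the counts of Ear2 and Chil3 leave out reads of such shared stretches is therefore uncertain.

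The files hold 45904 cell barcodes, of which 31279 were kept, between 3394 and 6014 per library, with a median of 4409 to 6792 UMIs per cell. The sham libraries were the shallowest in UMIs per cell, at 4409 and 4588, against 5510.5 to 6792 in the irradiated ones. Between 4 and 27 kept barcodes were shared by any pair of libraries, with the highest number in the pair of knockout-labelled libraries, and 338 kept cells carried a barcode found in more than 1 library. The cells fell into 29 clusters when they were grouped without the 6 genes. Clusters 0, 2, 7, 8 and 9 were macrophage-like (9894 cells), and clusters 21 and 23 were monocyte-like (1918 cells), nonclassical by Ace and Cd300e in cluster 21 and classical by Ly6c2 and Vcan in cluster 23. In what follows values are listed in the order sham 1 and 2, irradiated wild-type 1 and 2, and irradiated knockout-labelled 1 and 2.

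The members did not mark the same cells. Retnla, with 234382 UMIs in kept cells the most abundant of the 6, was highest in a small unnamed cluster (cluster 10), Chil3 in classical monocyte-like cells, Ear2 in nonclassical monocyte-like cells, and Arg1 in type 2 innate lymphoid-like cells. Il4ra was found in every class with many cells, and Il10 did not exceed 86.9 CPM in any library of any cluster. Of the 20428 Chil3 UMIs, 65.5% lay in monocyte-like cells, which were 6.13% of the cells, whereas those cells held 1.27% of the Retnla UMIs. Macrophage-like cells held 24.6% of the Retnla UMIs and 0.876% of the Chil3 UMIs. Cycling cells held another 8.62% of the Retnla UMIs, at 932, 892, 623, 869, 1328 and 1590 CPM.

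**Figure D1:**
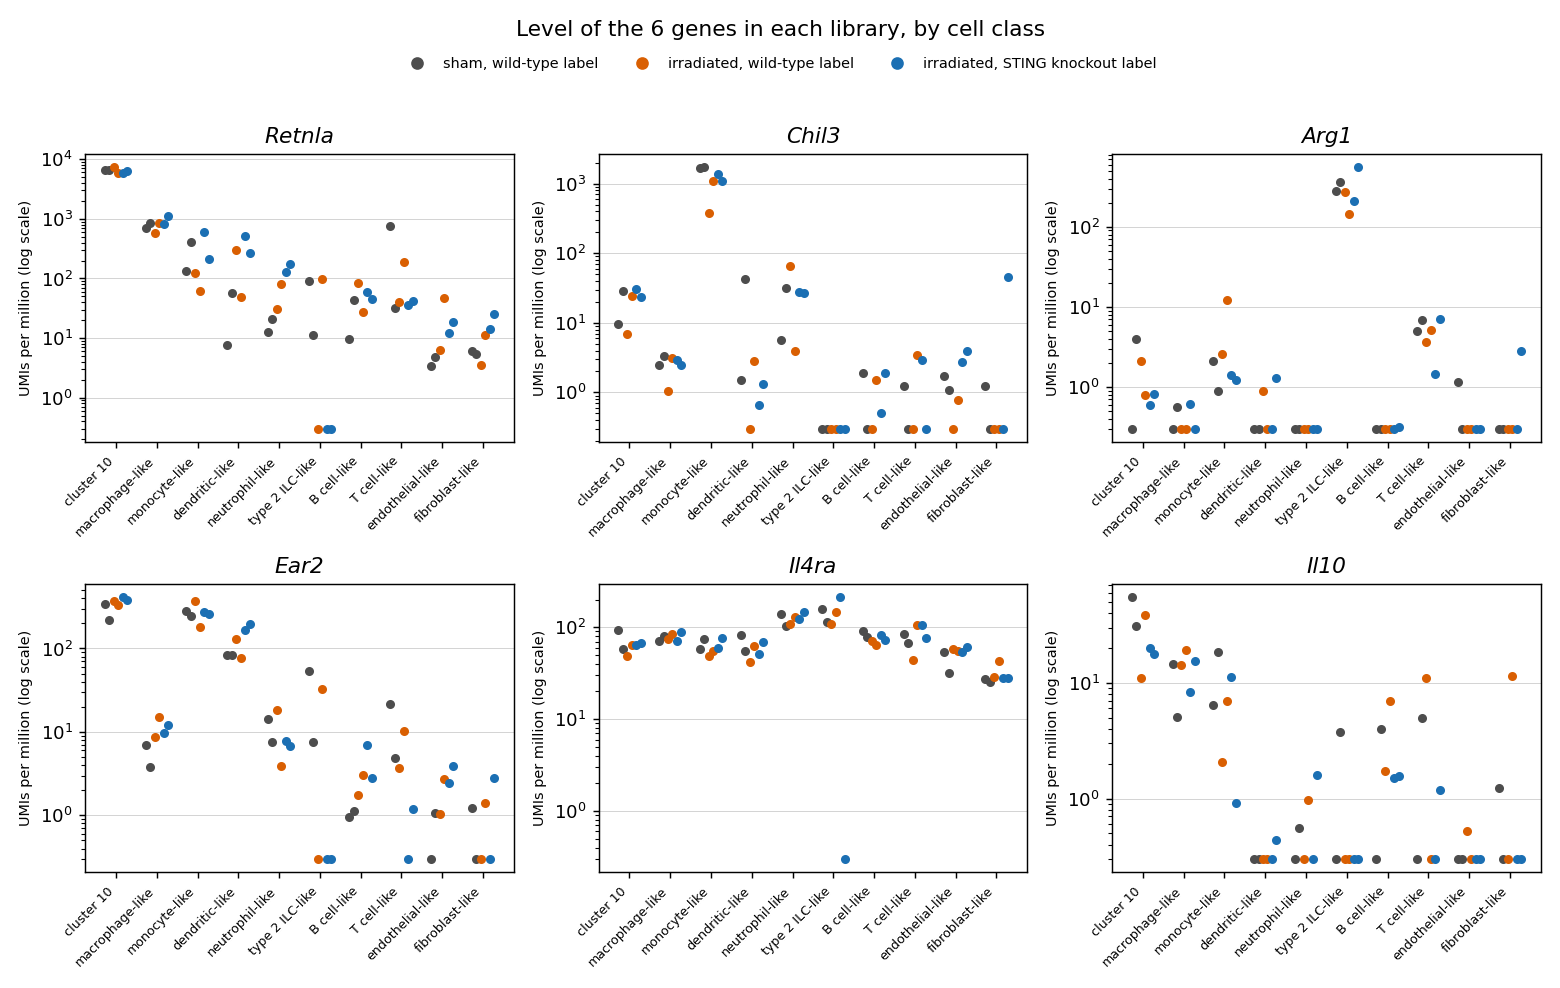
Level of each of the 6 genes (CPM, log scale; libraries below 0.3, also those with no UMI, are drawn at 0.3) by cell class, with 1 point per library coloured by group. Retnla is highest in cluster 10, Chil3 in monocyte-like cells and Arg1 in type 2 innate lymphoid-like cells (ILC-like; only 3 to 8 cells in each irradiated library), while Il4ra stands at 104 to 147 CPM in neutrophil-like and 25.3 to 42.7 CPM in fibroblast-like cells.

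Cluster 10 held 1110 cells, 3.55% of those kept, and 36.3% of all Retnla UMIs. Its leading genes were Mmp12, a macrophage elastase, Retnla, Tnip3, Dcstamp and Lyz1. It expressed the macrophage complement genes C1qa (2789 CPM), C1qb (3700 CPM) and C1qc (1842 CPM) together with Ccr2 (783 CPM), the chemokine receptor of recruited monocytes, and the antigen presentation gene Cd74 (27632 CPM). The dendritic cell markers Flt3 and Zbtb46 were at 2.02 and 1.42 CPM, and the monocyte marker Ly6c2 was at 14.9 CPM against 897 CPM in cluster 23. These levels are given without those of macrophage-like cells, so they do not show how alike the cells are. Macrophage was the best-scoring class, but only 1 of its markers fixed for this work passed the marker rule there, so the cluster stays unnamed. Its cells were deep, with a median of 9926.5 UMIs.

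In cluster 10 the Retnla level was 6691, 6698, 7360, 5929, 5987 and 6285 CPM. The 3 groups overlapped. The radiation difference was -0.00 ± 0.09 on the log2 scale (edgeR's quasi-likelihood test with Benjamini-Hochberg adjustment over 9379 genes, adjusted p = 0.997), and the genotype difference was -0.20 ± 0.09 (adjusted p = 0.408). Of all genes tested in the cluster, 1.03% were called for radiation and 0.597% for genotype. Here and below, ± after a log2 difference is its standard error, and a call is an adjusted p under 0.05.

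The share of kept cells that fell in cluster 10 was higher in all 4 irradiated libraries than in both sham libraries. Cluster 10 made up 2.37% and 1.76% of the kept cells in sham, 4.21% and 4.24% in irradiated wild-type and 4.05% and 4.69% in knockout-labelled libraries. The mean was 2.06% ± 0.43 (SD, n = 2) in sham and 4.23% ± 0.02 (SD, n = 2) after irradiation of wild-type hearts, and the groups did not overlap. With 2 libraries against 2, the exact two-sided permutation test cannot give a p under 0.333, which is the value it gave. Across all kept cells, Retnla stood at 756, 696, 1047, 1053, 1145 and 1316 CPM, so both sham libraries were below all 4 irradiated ones.

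The share of cluster 10 cells with Retnla was lower in both sham libraries than in the other 4. At 2000 UMIs per cell, 30.5% and 36.6% of its sham cells had a Retnla UMI, against 55.0%, 51.6%, 49.5% and 48.5% in the irradiated libraries. Without thinning, the shares were 34.6%, 42.3%, 62.9%, 58.4%, 61.1% and 57.8%. The median Retnla count of a positive cell was 116 and 64.5 UMIs in sham and 85.5, 45, 60.5 and 56 in the irradiated libraries, without thinning, so the groups overlapped. Cells with at least 100 Retnla UMIs held between 86.7% and 90.7% of the UMIs in every library.

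Of the macrophage-like clusters, cluster 7, which led with Cd209f, Ccl8 and Vsig4, had the most Retnla, at 1097, 1411, 1251, 1309, 1570 and 2157 CPM. Its share of the kept cells was 12.3% and 10.4% in sham libraries, 4.74% and 5.99% in irradiated wild-type and 5.34% and 4.69% in knockout-labelled libraries. So cluster 7 was the smaller and cluster 10 the larger in all 4 irradiated libraries, each against both sham libraries (exact two-sided permutation p = 0.333 for radiation in cluster 7, the smallest possible). Within a total of 100%, a smaller share of 1 cluster cannot be told apart from a larger share of others.

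Retnla was also high in 2 deep clusters without a class name, each with markers of 2 lineages. Cluster 17 passed 9 B cell markers, and macrophage markers were detected there, at the median, at 0.78 of their highest share in any cluster. Cluster 18 passed 9 T cell markers and was set aside as mixed, with macrophage markers at 0.65. The median was 11318 UMIs per cell in cluster 17 and 12363 in cluster 18. In cluster 17 (906 cells, led by Cd209a, Upb1 and Retnla), which held 12.4% of all Retnla UMIs, it was 1333, 1901, 1153, 2086, 3828 and 2908 CPM, higher in both knockout-labelled libraries than in the other 4, and the genotype difference of 0.96 ± 0.23 was not called (edgeR, adjusted p = 0.0814, with 0.591% of genes called). In cluster 18, described with Chil3 below, it was 1742, 1015, 2158, 1669, 2080 and 2843 CPM, and the groups overlapped.

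**Figure D2:**
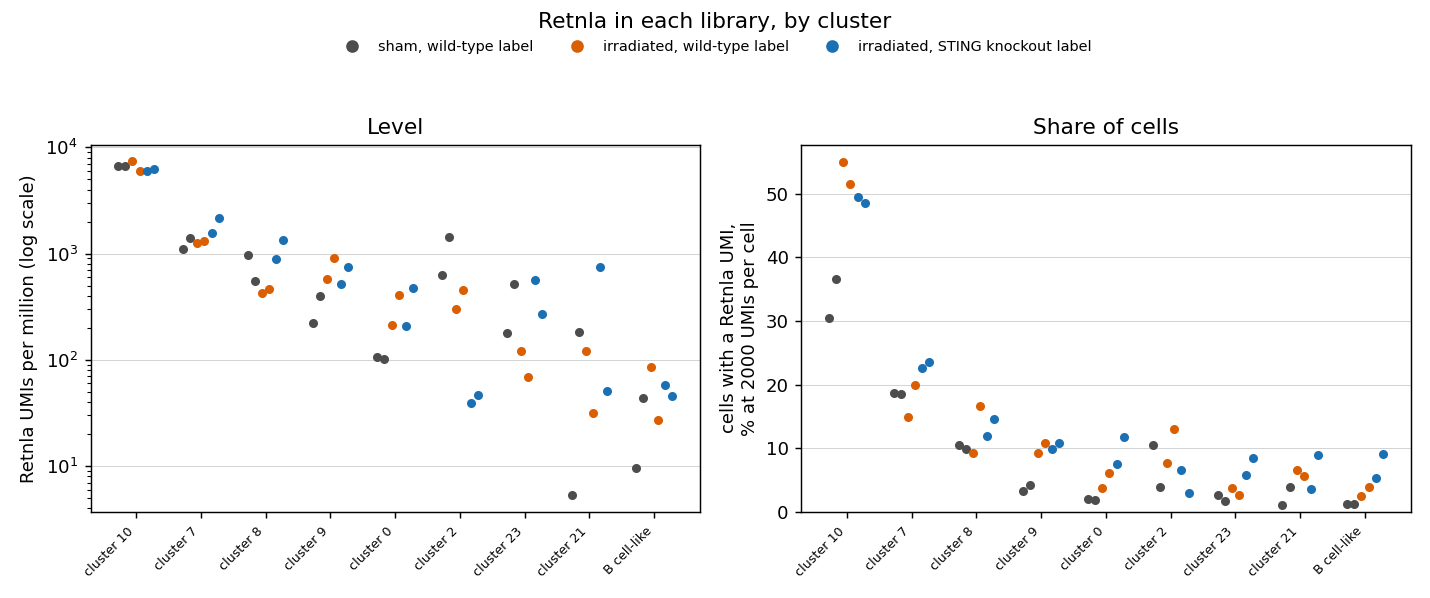
Retnla level (left, CPM, log scale) and share of cells with a Retnla UMI after each cell was thinned to 2000 UMIs (right, %), by cluster, with 1 point per library coloured by group; B cell-like cells are shown as background. The cluster 10 level lies between 5929 and 7360 CPM in all 6 libraries, while its share of cells with a UMI is lower in both sham libraries than in the other 4.

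In macrophage-like cells as a whole, Retnla stood at 715, 843, 583, 854, 814 and 1129 CPM, and the groups overlapped. Irradiated and sham wild-type libraries differed by -0.10 ± 0.19 on the log2 scale (edgeR, adjusted p = 0.784) and the genotype difference was 0.31 ± 0.19 (adjusted p = 0.389), so neither was called. In this class 8.63% of 12144 genes were called for radiation, 4.03% for genotype and 6.97% between knockout-labelled irradiated and sham libraries, and of the members, 5 were tested and only Ear2 was called, for radiation. The sign of the radiation value turned when cluster 10 was counted as macrophage-like, which gave 0.50 (adjusted p = 0.0118), and when the coarser clustering or the clustering with doublets put it there, which gave 0.43 (adjusted p = 0.0203) and 0.47 (adjusted p = 0.0190).

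The macrophage-like clusters taken singly, a comparison added after the clusters had been seen, differed from the class. In cluster 9, which led with Mmp13, Tnf and Hmox1, Retnla was 222, 402, 577, 910, 521 and 743 CPM, so both sham libraries were below the other 4. The level rose with radiation by 1.23 ± 0.25 on the log2 scale (edgeR, adjusted p = 0.0118), in a cluster where 5.07% of 10370 genes were called. It was not called by DESeq2 (adjusted p = 0.216), without irradiated wild-type replicate 2 (0.85, adjusted p = 0.117) or without sham replicate 1 (0.85, adjusted p = 0.0992). At 2000 UMIs per cell, the share of its cells with a Retnla UMI was 3.32% and 4.31% in sham and 9.25%, 10.8%, 9.87% and 10.9% in the irradiated libraries, beside at most 9.04% in any library of B cell-like cells.

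In cluster 0, which led with Zmynd15, Tmem119 and Lilra5, Retnla was 107, 102, 211, 409, 207 and 472 CPM. Retnla rose there with radiation by 1.53 ± 0.30 (edgeR, adjusted p = 0.00396, with 4.8% of 8799 genes called), and the difference between knockout-labelled irradiated and sham libraries was 1.58 ± 0.29 (adjusted p = 0.00211, with 4.49% of genes called). Between 77.2% and 94.9% of these UMIs lay in 5 cells per library. Without those cells the level was 5.5, 7.0, 21.4, 50.1, 27.5 and 108 CPM, beside 3.8, 2.3, 7.8, 15.9, 21.2 and 39.6 CPM in B cell-like cells treated the same way. The radiation call was lost by DESeq2 (adjusted p = 0.127) and without irradiated wild-type replicate 2 (0.98, adjusted p = 0.0641).

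Genotype differences were called in 2 macrophage-like clusters, in opposite directions. In cluster 8, the Folr2, Lyve1 and Cd163 cluster, Retnla was 979, 547, 429, 462, 891 and 1345 CPM, higher in both knockout-labelled libraries than in both irradiated wild-type libraries by 1.26 ± 0.20 on the log2 scale (edgeR, adjusted p = 0.00535, with 0.857% of 9454 genes called). Without knockout-labelled replicate 2 it was 0.94 (adjusted p = 0.0916). In cluster 2, the interferon-response cluster led by Ifit3 and Ifit2, Retnla was 629, 1424, 302, 450, 39.0 and 46.7 CPM, lower in the knockout-labelled libraries by -3.18 ± 0.38 (edgeR, adjusted p = 0.00250, with 0.142% of 7052 genes called). Cluster 2 had 20 and 25 sham cells and 46 and 110 knockout-labelled cells, and at most 9 cells per library held 10 or more Retnla UMIs, so these levels rest on few cells. Without a filter on low counts the adjusted p was 0.0561 (-3.20). Against sham the knockout-labelled libraries were lower by -4.64 ± 0.39 (edgeR, adjusted p = 0.000123, with 0.326% of genes called). In the sham libraries only 3 and 2 cells of cluster 2 had a Retnla UMI, and in sham replicate 2 a single cell held 99.5% of these UMIs. The comparison with sham was not repeated under the alternatives. The difference between the clusters was not tested.

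Monocyte-like cells had little Retnla, and nearly all of it sat in a few cells. The class level was 131, 413, 122, 62.1, 612 and 212 CPM. Over the 6 libraries, 23 monocyte-like cells had 10 or more Retnla UMIs, namely 1, 2, 3, 2, 7 and 8 per library, and they held 2766 of the 2987 Retnla UMIs of the class, or 92.6%. The 5 richest cells of each library held between 73.8% and 99.4% of its monocyte-like Retnla UMIs. The radiation difference was -1.55 ± 0.51 on the log2 scale (edgeR, adjusted p = 0.478) and the genotype difference was 2.08 ± 0.50 (adjusted p = 0.0844). Neither was called, and the tests on 8735 genes called 0.0916% of them for radiation, 0.87% for genotype and 0.515% between knockout-labelled irradiated and sham libraries, with 5 members tested and none called. At an unadjusted p under 0.05, 640 genes passed for radiation.

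The sign of the radiation value in monocyte-like cells turned under 3 other ways of choosing cells, and the cause was not tested. When the 6 genes were allowed into the clustering, none of the 3 sham cells with 10 or more Retnla UMIs stayed in the class, whereas 4 of the 5 such cells of irradiated wild-type libraries did. The class level was then 12.1, 5.80, 110, 88.5, 390 and 262 CPM, and the radiation difference was 3.43 (adjusted p = 0.000719), which was called. A separate run left out barcodes above 5% mitochondrial UMIs and clustered without the 6 genes. In that run 1 of the 23 cells stayed, the level was 6.29, 4.75, 13.1, 88.7, 14.1 and 34.5 CPM, and the difference was 3.06 (edgeR, adjusted p = 0.875). Counting cluster 10 as monocyte-like gave 0.25 (adjusted p = 0.335).

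**Figure D3:**
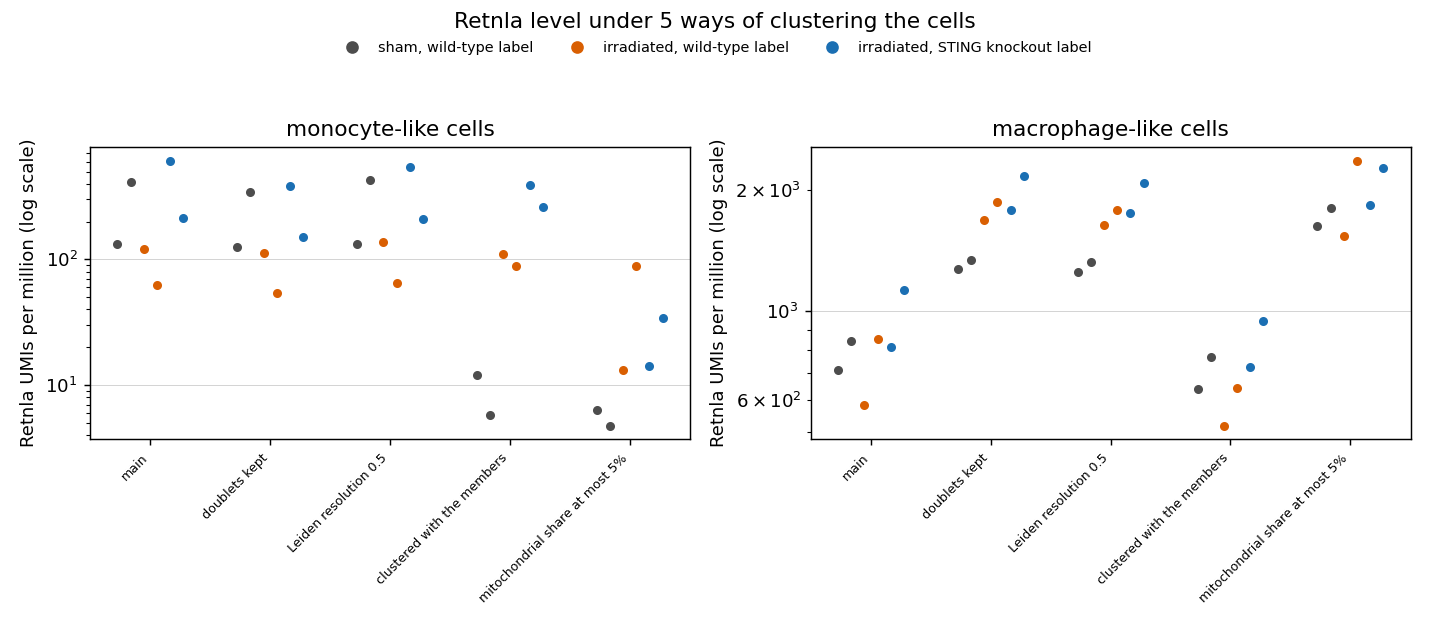
Retnla level (CPM, log scale) in monocyte-like (left) and macrophage-like cells (right) under the main clustering and 4 alternatives, with 1 point per library coloured by group. Keeping doublets or lowering the mitochondrial limit also changed which cells were clustered. In monocyte-like cells the sham libraries stand at 131 and 413 CPM in the main clustering and at 12.1 and 5.80 CPM when the 6 genes take part in the clustering.

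The share of monocyte-like cells with any Retnla UMI is given beside that of cells that should lack the gene. At 2000 UMIs per cell it was 2.02%, 2.66%, 5.13%, 3.54%, 5.0% and 8.62% in monocyte-like cells, beside 1.33%, 1.33%, 2.55%, 3.95%, 5.35% and 9.04% in B cell-like cells and 0.94%, 1.64%, 1.44%, 4.92%, 2.46% and 5.51% in endothelial-like cells. Without thinning, the shares were 3.75%, 4.08%, 7.23%, 9.46%, 10.7% and 18.9% in monocyte-like cells (median of 4989 to 6846 UMIs per cell) and 2.15%, 1.61%, 4.12%, 7.92%, 8.75% and 16.0% in B cell-like cells (median of 2054 to 4134). Both series are lowest in the sham libraries and highest in knockout-labelled replicate 2. At 2000 UMIs the monocyte-like share was below the B cell-like share in irradiated wild-type replicate 2 and both knockout-labelled libraries, and above the endothelial-like share in every library except irradiated wild-type replicate 2. No difference between groups is read from it, and the level of free RNA was not measured. In the monocyte class the 11 macrophage markers summed to 5315 to 8002 CPM, with none at 0 in any library, against 37266 to 47420 CPM in macrophage-like cells. Their part in the Retnla values was not tested.

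Within the monocyte-like class, Retnla in cluster 23 was 177, 514, 122, 69.7, 559 and 268 CPM, and the genotype difference of 2.03 ± 0.42 was called (edgeR, adjusted p = 0.0232, with 1.3% of 7856 genes called). It was not called by DESeq2 (adjusted p = 0.192), nor without knockout-labelled replicate 1 (1.40, adjusted p = 0.206) or irradiated wild-type replicate 2 (1.65, adjusted p = 0.121), nor with a replicate block (adjusted p = 0.0509). Between 81.5% and 100% of these UMIs lay in 5 cells per library. The test of whether radiation acted differently on monocyte-like and macrophage-like cells gave -1.25 ± 0.52 for Retnla (edgeR, adjusted p = 0.444), and called 0 of the 6 members against 0.617% of 11836 genes, with 1068 genes at an unadjusted p under 0.05.

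Neutrophil-like cells had little Retnla. Its level there was 12.8, 20.7, 31.3, 80.7, 129 and 173 CPM, and knockout-labelled irradiated libraries exceeded sham by 2.95 ± 0.32 on the log2 scale (edgeR, adjusted p = 0.00211, with 0.107% of 6558 genes called). At 2000 UMIs the share of neutrophil-like cells with a Retnla UMI was 1.11%, 2.31%, 2.94%, 6.57%, 8.28% and 14.4%, the same order of libraries as in B cell-like cells apart from a tie there between the sham libraries. The level of free RNA and its part in this call were not tested.

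Chil3 was the marker of classical monocyte-like cells. In cluster 23 its level was 2075, 2411, 564, 1311, 1907 and 1426 CPM. Both irradiated wild-type libraries were below the 4 others, but they also differed more from each other than the libraries of the other groups did. The radiation difference was -1.24 ± 0.25 on the log2 scale (edgeR, adjusted p = 0.0512, with 0.446% of genes called), just short of a call, and the genotype difference was 0.75 ± 0.25 (adjusted p = 0.174). Leaving out single libraries moved the radiation value between -1.95 and -0.76: it was called without irradiated wild-type replicate 1 (-0.76, adjusted p = 0.0267) and without replicate 2 of that group (-1.95, adjusted p = 8.74e-06), and also without knockout-labelled replicate 1 (adjusted p = 0.0322) or 2 (adjusted p = 0.0329), but not by DESeq2 (-1.23, adjusted p = 0.613). The genotype value was called without irradiated wild-type replicate 2 (1.46, adjusted p = 0.000224). The share of cluster 23 cells with a Chil3 UMI at 2000 UMIs was 63.6%, 61.3%, 33.3%, 55.0%, 61.2% and 46.5%.

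In the whole monocyte-like class Chil3 was 1651, 1718, 372, 1083, 1391 and 1090 CPM. Its radiation difference was -1.21 ± 0.32 (edgeR, adjusted p = 0.256) and the genotype difference was 0.69 ± 0.31 (adjusted p = 0.403); neither was called. The class mixes its clusters in different ratios: irradiated wild-type replicate 1 had 167 cells of cluster 21 and 165 of cluster 23, and replicate 2 had 100 and 249. In cluster 21 Chil3 was 487, 140, 104, 179, 119 and 130 CPM, several-fold below cluster 23 in each library. Cluster 22, an unnamed cluster of 521 cells with monocyte and neutrophil genes, had Chil3 at 513, 625, 207, 370, 1069 and 767 CPM, where the genotype difference of 1.68 ± 0.23 was called (edgeR, adjusted p = 0.00222, with 0.145% of genes called). Without irradiated wild-type replicate 1 it was 1.32 (adjusted p = 0.0749). In cluster 18, whose 843 cells led with T cell genes such as Cd8b1 and Cd3e but also passed macrophage markers, Chil3 was lower, at 46.1, 50.5, 11.9, 19.4, 114 and 84.1 CPM, and the groups did not overlap. There it fell with radiation (-1.56 ± 0.24, edgeR, adjusted p = 0.00740, with 0.681% of genes called) and was higher by genotype (2.5003 ± 0.22, adjusted p = 1.06e-05, with 1.11% called) and against sham (0.94 ± 0.20, adjusted p = 0.0280, with 1.58% called). The radiation call was lost without sham replicate 2 (-1.45, adjusted p = 0.161), and the genotype call was kept in all 10 alternatives. Ear2 in cluster 18 was higher in knockout-labelled than in sham libraries (0.92 ± 0.18, adjusted p = 0.0197). In macrophage-like cells Chil3 did not exceed 3.32 CPM and in cluster 10 it did not exceed 30.3 CPM, beside at most 1.92 CPM in B cell-like cells.

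**Figure D4:**
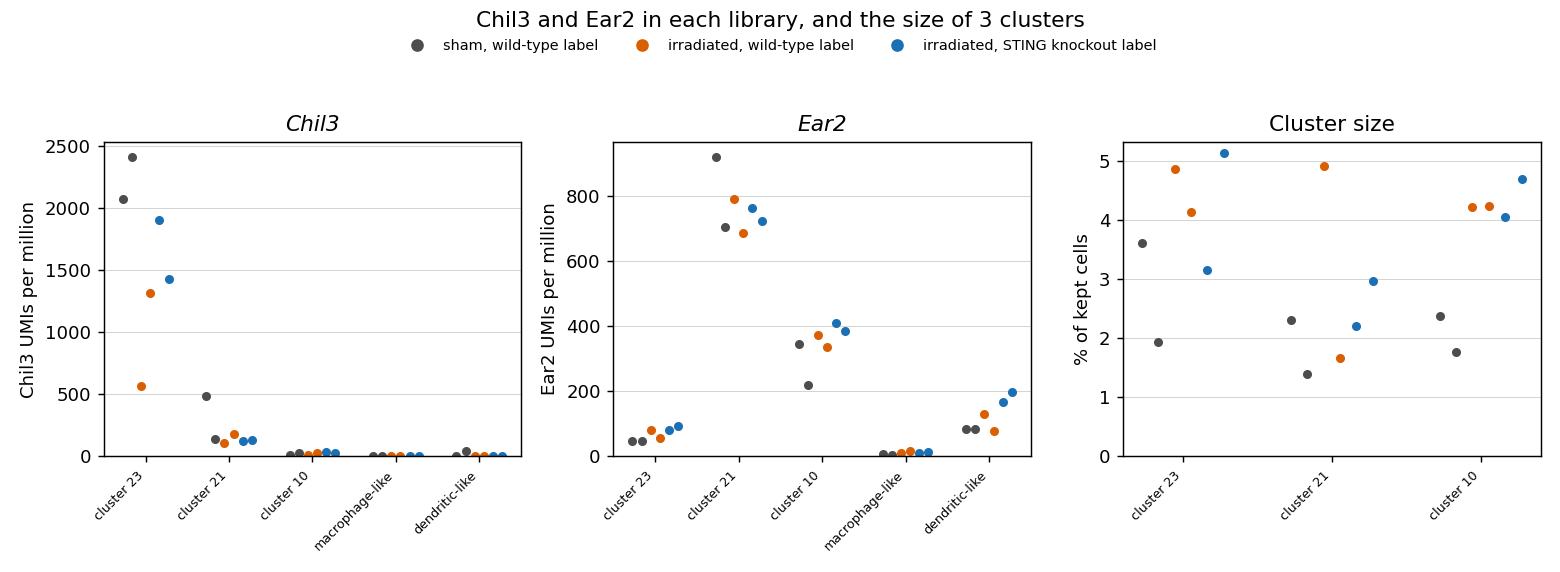
Chil3 (left) and Ear2 (middle) levels (CPM, linear scale) in 5 groups of cells, and the share of kept cells in clusters 23, 21 and 10 (right, %), with 1 point per library coloured by group. Chil3 is highest in cluster 23, where the irradiated wild-type libraries stand at 564 and 1311 CPM, and Ear2 is highest in cluster 21, at 683 to 918 CPM in every library.

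Ear2 separated the monocyte-like clusters 21 and 23 the other way. In cluster 21, the nonclassical one, it was 918, 705, 789, 683, 761 and 721 CPM, with overlapping groups and a radiation difference of -0.17 ± 0.14 (edgeR, adjusted p = 0.940). There edgeR called 0 of 5677 genes for radiation (0%), with 308 at an unadjusted p under 0.05. In cluster 23 it was 45.6, 46.0, 79.1, 54.4, 79.3 and 93.3 CPM. The unnamed cluster 22 led with Cd300e, Treml4, Apoc2 and Ace, which were also among the leading genes of cluster 21. It had Ear2 as well as the Chil3 given above, so the 2 genes were not opposed there. The lowest group mean of Ear2 in cluster 22 was 359 CPM (sham), and the highest was 379 CPM (knockout label). Whether single cells of cluster 22 held both genes was not tested. At 2000 UMIs per cell, Ear2 was found in 15.2% of the 656 monocyte-like cells with a Chil3 UMI and in 41.9% of those without.

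In cluster 10 Ear2 was 344, 218, 373, 336, 410 and 385 CPM, and it went with Retnla cell by cell. At 2000 UMIs, 258 of the 516 Retnla-positive cells of the cluster (50%) also had an Ear2 UMI, against 9.97% of the others, counts that pool the cells of all 6 libraries. In macrophage-like cells the corresponding shares were 4.72% and 0.46%. The radiation difference of Ear2 in cluster 10, 0.34 ± 0.17, was not called (edgeR, adjusted p = 0.461).

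In the macrophage-like class as a whole Ear2 was the 1 member called, at a low level. It stood at 7.03, 3.80, 8.73, 15.3, 9.68 and 12.2 CPM, or 65, 40, 75, 159, 144 and 175 UMIs, so both sham libraries were lowest, by a narrow margin between sham 1 and irradiated wild-type 1. Ear2 rose with radiation by 1.20 ± 0.32 on the log2 scale (edgeR, adjusted p = 0.0457). At 2000 UMIs, 0.55%, 0.45%, 0.99%, 1.85%, 0.94% and 1.01% of macrophage-like cells had an Ear2 UMI, beside at most 1.19% in B cell-like cells. Without thinning the shares were 0.73%, 0.75%, 2.76%, 3.0006%, 3.13% and 2.93% in macrophage-like and 0.24%, 0.36%, 0.59%, 1.40%, 1.52% and 1.21% in B cell-like cells. The value was above 0 in all 16 alternatives, from 0.72 to 1.98, but was called in 8 of them: without irradiated wild-type replicate 2 it was 0.72 (adjusted p = 0.220), without sham replicate 2 it was 0.83 (adjusted p = 0.182), without knockout-labelled replicate 1 or 2 the adjusted p was 0.0625 or 0.0632, and with a replicate block it was 0.0510. In dendritic-like cells Ear2 was 82.6, 82.9, 131, 75.8, 166 and 198 CPM, with a genotype difference of 0.73 ± 0.21 that was not called (edgeR, adjusted p = 0.233, with 0.279% of genes called).

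Arg1, the arginase often taken as the enzyme of alternative activation, was nearly absent from macrophages. Only 418 Arg1 UMIs were counted in all kept cells, of which 23 lay in the 9894 macrophage-like cells and 37 in monocyte-like cells. The macrophage-like level was 0, 0.57, 0.23, 0.29, 0.61 and 0.21 CPM, and the 0 of sham replicate 1 allows up to 0.324 CPM by the 3-count limit, which covers counting error only. Arg1 was therefore not tested in these 2 classes. In monocyte-like cells it was 2.13, 0.89, 2.57, 12.2, 1.41 and 1.22 CPM, and 21 of the 37 UMIs came from irradiated wild-type replicate 2.

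Of all Arg1 UMIs, 46.9% lay in the 134 type 2 innate lymphoid-like cells, which led with Csf2, Calca, Il13, Il5 and Gata3. The level in them was 278, 358, 274, 146, 212 and 556 CPM, with no separation of the groups. These cells numbered 59 and 53 in the sham libraries but 4 and 8 in the irradiated wild-type and 7 and 3 in the knockout-labelled libraries. Their share of kept cells was 1.10% ± 0.29 (SD, n = 2) in sham, 0.12% ± 0.01 (SD, n = 2) in irradiated wild-type and 0.09% ± 0.05 (SD, n = 2) in knockout-labelled libraries, with the exact permutation p again at its floor of 0.333. The Arg1 level over all other named classes combined followed that share, at 11.9, 9.85, 1.35, 1.04, 0.55 and 1.41 CPM. The radiation difference of -3.23 ± 0.44 was not called by edgeR (adjusted p = 0.186) but was by DESeq2 (-3.23, adjusted p = 5.9e-06). In these cells edgeR called 0.0144% of 13901 genes for radiation and 0% for genotype, with 6 members tested in each and none called. At an unadjusted edgeR p under 0.05, 1229 genes passed for genotype, and DESeq2 called 24 genes for genotype. In a sum over several classes, fewer cells of a type and less RNA per cell cannot be told apart. Cluster 28, an unnamed cluster of 256 cells led by Alox15, Prg4 and Saa3, held another 15.3% of the Arg1 UMIs, at 44.5, 10.0, 45.4, 34.1, 2.13 and 7.69 CPM.

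**Figure D5:**
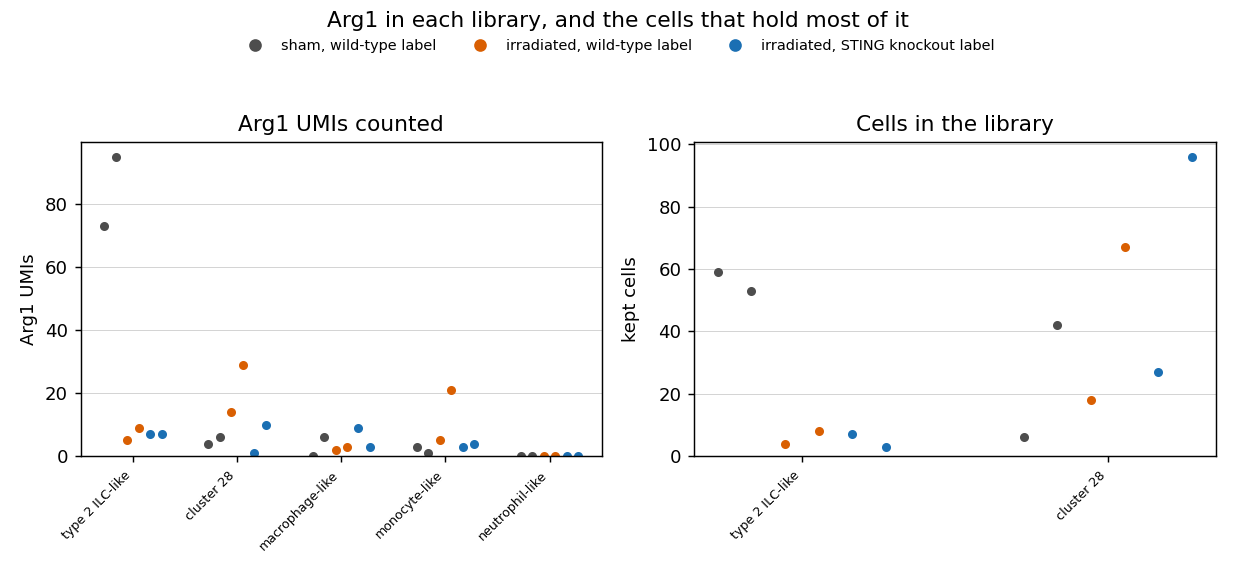
Arg1 UMIs counted in 5 groups of cells (left) and the number of kept cells in type 2 innate lymphoid-like (ILC-like) cells and in cluster 28 (right), with 1 point per library coloured by group. The type 2 innate lymphoid-like cells hold 73 and 95 Arg1 UMIs in the sham libraries and 5 to 9 in each irradiated library, where they number 3 to 8.

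Il4ra, the receptor chain for interleukin-4 and interleukin-13, was found in macrophage-like and monocyte-like cells of every library. In macrophage-like cells it was 71.8, 80.4, 74.7, 84.3, 70.5 and 89.1 CPM, in monocyte-like cells 57.6, 75.5, 49.3, 54.5, 60.2 and 75.6 CPM, and in cluster 10 it was 94.5, 58.6, 48.2, 63.6, 63.6 and 66.7 CPM. In monocyte-like cells both irradiated wild-type libraries were below the other 4. The highest class with many cells was neutrophil-like, at 138, 104, 110, 130, 122 and 147 CPM, and fibroblast-like cells were among the lowest, at 25.3 to 42.7 CPM. None of the comparisons of Il4ra was called: the radiation difference was -0.35 ± 0.20 in monocyte-like cells (edgeR, adjusted p = 0.720). NK cell-like cells were also low, at 38.6, 38.6, 28.1, 41.2, 31.4 and 37.1 CPM, below every library of macrophage-like and B cell-like cells, whose libraries overlapped each other (64.5 to 91.0 CPM in B cell-like cells). In cluster 10, 11.6% of cells with a Retnla UMI had an Il4ra UMI and 15.7% of those without at 2000 UMIs. The ligands were sparse: 70.3% of Il4 UMIs lay in the 81 mast cell or basophil-like cells (761 CPM) and 73.6% of Il13 UMIs in the type 2 innate lymphoid-like cells (196 CPM).

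Il10, the cytokine, gave 2159 UMIs in all kept cells, 39.7% of them in macrophage-like cells and 15.5% in cluster 10. Its macrophage-like level was 14.5, 5.03, 14.3, 19.3, 8.41 and 15.4 CPM, and the groups overlapped. The radiation difference of 0.84 ± 0.40 was not called (edgeR, adjusted p = 0.227), and it lay between 0.27 and 1.74 when single libraries were left out. In cluster 10 Il10 was 54.8, 30.8, 11.1, 38.9, 20.02 and 17.8 CPM, and in cluster 28 it was 22.3, 5.001, 68.1, 86.9, 14.9 and 76.1 CPM. As background, endothelial-like cells had 1 Il10 UMI and dendritic-like cells had 1.

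Beside the members, 6 lists of related genes were read in macrophage-like and monocyte-like cells, by counts. Of 24 other alternative activation genes tested in macrophage-like cells, 2 rose and 7 fell with radiation (37.5%, against 8.63% of all genes called in this class), with a median log2 difference of -0.05 against -0.00 for all genes tested. The 2 that rose were Il1rn, the interleukin-1 receptor antagonist (1.45 ± 0.21, adjusted p = 0.00381), and Ch25h, cholesterol 25-hydroxylase (1.30 ± 0.24, adjusted p = 0.0108). Among those that fell were Mrc1, the mannose receptor (-0.48 ± 0.08, adjusted p = 0.00675), and Ccl24, an eosinophil chemokine (-0.94 ± 0.18, adjusted p = 0.0129). By genotype, 3 of the 24 were higher and 3 lower in knockout-labelled libraries (25%, against 4.03% of all genes): Mrc1 (0.47 ± 0.08, adjusted p = 0.0160) and F13a1 (0.49 ± 0.09, adjusted p = 0.0271) were higher, and Egr2, a transcription factor (-0.91 ± 0.13, adjusted p = 0.00896), was lower.

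Of 9 classical activation genes in macrophage-like cells, 3 rose with radiation (33.3%, against 8.63% of all genes called) and 5 were lower in knockout-labelled libraries (55.6%, against 4.03%), with medians of 0.50 and -0.99. Cxcl10, an interferon-induced chemokine, gave 1.93 ± 0.21 (adjusted p = 0.00118) and -1.74 ± 0.21 (adjusted p = 0.00420), and Tnf gave 0.43 ± 0.10 (adjusted p = 0.0292) and -1.02 ± 0.10 (adjusted p = 0.00252). In the arginine metabolism list, 2 of 8 rose with radiation, and the larger was Ass1, argininosuccinate synthase, at 2.90 ± 0.38 (adjusted p = 0.00283), while Odc1, ornithine decarboxylase, was lower by genotype (-0.84 ± 0.11, adjusted p = 0.00718). Of 10 interleukin-4 and interleukin-13 receptor and signalling genes, 2 rose with radiation, Il2rg (0.69 ± 0.16, adjusted p = 0.0261) and Socs1, a suppressor of cytokine signalling (0.43 ± 0.11, adjusted p = 0.0368), and 1, Socs1, was lower in knockout-labelled libraries (-1.02 ± 0.11, adjusted p = 0.00252). Of 8 interleukin-10 receptor and signalling genes, Socs3 fell with radiation (-0.75 ± 0.14, adjusted p = 0.0130) and Stat3 was lower by genotype (-0.57 ± 0.14, adjusted p = 0.0480). In monocyte-like cells 1 of 20 alternative activation genes rose with radiation, Il1rn (1.18 ± 0.17, adjusted p = 0.0315), and 1 of 8 classical genes, Il1b, the interleukin-1β gene (0.95 ± 0.12, adjusted p = 0.0109). Of all 8735 genes tested in monocyte-like cells, 0.0916% were called for radiation and 0.87% for genotype. By genotype, Egr2 (-1.59 ± 0.26, adjusted p = 0.00941), Il1rn (-0.82 ± 0.15, adjusted p = 0.0200) and Il1b (-0.92 ± 0.11, adjusted p = 0.00248) were lower in knockout-labelled monocyte-like cells, and the other 4 lists held no call in either comparison. The family relatives list had 2 genes tested in each class and no call.

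Family relatives of the members marked other cells. Retnlg averaged 7842 CPM in neutrophil-like cells and 5.83 CPM in macrophage-like cells, the reverse of Retnla. Retn (62.4 CPM) and Chil1 (129 CPM) were also highest in neutrophil-like cells. Arg2, the mitochondrial arginase, averaged 585 CPM in neutrophil-like and 18.5 CPM in monocyte-like cells, where Arg1 was almost absent. Across 10 named classes, the genes whose mean log2 level was most like a member's, out of 11453, were Tmem273 for Retnla (Pearson r = 0.97), Dmkn for Chil3 (r = 0.98), Trpc4ap for Arg1 (r = 0.87), Dna2 for Ear2 (r = 0.96), Narf for Il4ra (r = 0.91) and Tfec for Il10 (r = 0.93). These are descriptions over 10 points that share their libraries. The 10 classes had at least 20 cells in every library, so the type 2 innate lymphoid-like cells, with 46.9% of Arg1 UMIs, were not among them. In the classes used, Arg1 reached at most 5.16 CPM with the libraries pooled, so its likeness rests on values near 0.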

How the data were processed

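CD45+ cardiac cells were profiled in 6 droplet libraries, 2 in each of 3 groups taken from the labels. The authors deposited raw UMI counts per gene and barcode, and the submitters' processing notes name Cell Ranger 5.0.0, Seurat 3 and the mm10 build, without saying which step each served. The 6 genes and all gene lists were chosen with earlier results of these data known.

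Barcodes with at least 200 genes and at most 10% mitochondrial UMIs were kept, and the 98 to 321 cells with the highest doublet scores were removed from each library, because the automatic threshold marked at most 3. Between 31650962 and 59675213 UMIs were deposited per library, and 23.2% to 33.4% of barcodes were above the mitochondrial limit. Cells were clustered with scanpy 1.11.5 (Python 3.11.15) on 2000 variable genes without the 6 members (30 components, 15 neighbours, Leiden resolution 1.0). A class was named where at least 3 of its fixed markers passed a 1.5-fold rule. A cluster also stayed unnamed where its leading genes held more markers of an unrelated class than of its own. It was set aside as mixed where markers of an unrelated class were detected, at the median, at 0.5 or more of their highest share in any cluster. Cycling cells were exempt from the rule for mixed clusters. Names may therefore differ from those of the study. For shares, cells were thinned to 2000 UMIs, which left out 796, 867, 367, 984, 560 and 749 shallower cells.

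UMIs were summed per library and class and tested with edgeR 4.0.16 (quasi-likelihood, TMM, all 6 libraries in 1 fit, R 4.3.3) at an adjusted p under 0.05, with Benjamini-Hochberg adjustment over all genes tested. Every adjusted p is from edgeR unless DESeq2 1.42.0 is named. Tests of single clusters were added after the clusters had been seen. Where they were repeated under alternatives, this was for radiation and genotype and not for knockout-labelled against sham libraries. Replicates of a group differed beyond sampling noise (chi-square per degree of freedom of 33.5 to 74.0). The scripts were tested on simulated data. Alternatives were another tool, no filter on low counts, 2 other clusterings, doublets kept, a 5% mitochondrial limit, only the 4 libraries compared, a replicate block, shared barcodes removed and each library left out. Intervals and limits cover counting error only. Named genes were the 6 members, up to 6 called genes per list and comparison by smallest adjusted p, relatives at 10 CPM or more in a class, and the genes most like each member. Files listed 32285 genes, of which 32158 were placed by GENCODE vM21.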

Additional observations from a re-analysis of the deposited data

Results flagged for a closer look

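Barcodes with over 10% mitochondrial UMIs entered no comparison, and in them Retnla and Ear2 were higher in all 4 irradiated libraries than in both sham libraries. Retnla stood at 151 and 353 CPM in sham, 630 and 652 CPM in irradiated wild-type and 726 and 1121 CPM in knockout-labelled libraries, a mean of 782.4 CPM over the 4 irradiated ones. Ear2 stood at 9.14, 10.1, 46.9, 30.3, 43.0 and 46.5 CPM in the same order, a mean of 41.65 CPM over the 4 irradiated libraries. The other 4 members did not separate in this way. These differences were not tested.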

How the results depend on the processing

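Of the single-gene values recomputed under the alternatives, 215 kept direction and side of the threshold, 31 passed it only under the alternative, 21 no longer passed and 18 turned sign. The turned values are all of Retnla, and the cause was not tested. Its macrophage-like radiation value became 0.43 at Leiden resolution 0.5, 0.50 with cluster 10 added, 0.47 with doublets kept and 0.22 with mitochondrial UMIs of at most 5%, and lay between -0.41 and 0.15 with single libraries left out (0.15 without irradiated wild-type replicate 1, 0.05 without sham replicate 2). Its macrophage-like genotype value became -0.0047 with cluster 10 added and -0.028 at the 5% limit. In monocyte-like cells the radiation value became 0.25 with cluster 10 added, 3.43 with the members in the clustering and 3.06 at the 5% limit, and the genotype value -0.066 with cluster 10 added and -0.95 at the 5% limit. The cluster 10 radiation value was 0.026 without a filter on low counts and lay between -0.15 and 0.14 with single libraries left out (0.14 without irradiated wild-type replicate 2, 0.01 without sham replicate 1, 0.00 without either knockout-labelled library). Chil3 in monocyte-like cells was called for radiation without irradiated wild-type replicate 1 (-0.62, edgeR adjusted p = 0.0183) or 2 (-2.18, adjusted p = 3.74e-09), and Retnla by genotype without replicate 1 of that group (2.63, adjusted p = 0.0170).

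Counts of genes called moved with the settings. In macrophage-like cells the 1048 radiation, 490 genotype and 846 knockout-against-sham calls became 138, 47 and 175 at the 5% limit and 1893, 1261 and 1750 without the filter. With single libraries left out they ran from 479 to 768, 49 to 594 and 171 to 989. In monocyte-like cells the 8 radiation calls became 15 by DESeq2, 2 at Leiden resolution 0.5, 54 with cluster 10 added, 19 with the members in the clustering, 5 with doublets kept, 0 at the 5% limit, 118 without the filter, 2 with only 4 libraries and 0 to 98 with single libraries left out. The 76 genotype calls there became 17, 287 and 45 at the 5% limit, without the filter and with 4 libraries, and 6 to 211 with single libraries left out. The 45 knockout-against-sham calls became 24 by DESeq2, 209 with cluster 10 added, 18 at the 5% limit, 160 without the filter, 120 with 4 libraries and 4 to 135 with single libraries left out. The 73 interaction calls became 243 without the filter and 35 to 129 with single libraries left out. In the other named cells the 2 radiation calls became 160 by DESeq2, 1 at Leiden resolution 0.5, 10 with the members in the clustering, 1 with doublets kept, 1432 without the filter, 1 with 4 libraries and 0 to 287 with single libraries left out, and the 0 genotype calls became 24, 2 and 444 by DESeq2, at the 5% limit and without the filter, and stayed at 0 with any library left out.

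Of the members, 1 was called for radiation in macrophage-like cells. This became 2 at Leiden resolution 0.5, with cluster 10 added, with doublets kept, at the 5% limit and without the filter, 0 with the members in the clustering, with 4 libraries and without shared barcodes, and 0 to 1 with single libraries left out. For knockout-labelled against sham it was 0, and 2 at Leiden resolution 0.5, with cluster 10 added or doublets kept, 1 at the 5% limit, without the filter and with 4 libraries, and 0 to 1 with single libraries left out. By genotype it was 2 without the filter. In monocyte-like cells the 0 became 1 for radiation with cluster 10 added or the members in the clustering and 2 without the filter. There it became 1 by genotype with the members in the clustering and 3 without the filter, and for knockout-labelled against sham 1 with the members in the clustering, 2 without the filter and 1 with 4 libraries. With single libraries left out these ran from 0 to 1, 0 to 2 and 0 to 1. The interaction called 3 without the filter and 0 to 1 with single libraries left out, and in the other named cells 2 were called without the filter in each comparison and 1 by DESeq2 for radiation. Thinning to 2000 UMIs lowered the mean share of cells with a UMI to 2.34%, 4.33% and 6.81% for Retnla in monocyte-like cells (sham first, knockout label last), to 53.3% and 49.0% for Retnla in irradiated wild-type and knockout-labelled cluster 10, and to 42.7% and 37.7% for Chil3 in sham and knockout-labelled monocyte-like cells.

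The labels tie replicate numbers to no shared source, and same-numbered libraries deviated together with r of 0.02, -0.04 and -0.00 in monocyte-like and 0.10, -0.04 and -0.17 in macrophage-like cells, so they were not treated as paired. With a replicate block, 14 genes were called for radiation in monocyte-like cells, 1 for radiation and 1 by genotype in the other named cells, and 0 members for radiation in macrophage-like cells. No other count of calls moved by over 1.5 times under the block.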

Other observations

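In cluster 10, where no difference of Retnla was called, 1.03% of genes were called for radiation, and the related lists held 4 of these calls. They were named after their values had been seen. Igf1, insulin-like growth factor 1, fell by 1.24 on the log2 scale (edgeR, adjusted p = 0.00304). Slc7a2, a cationic amino acid transporter that imports arginine, fell by 2.58 (adjusted p = 0.0401), and Socs3 fell by 0.53 (adjusted p = 0.0449). Mgl2, a C-type lectin, rose by 0.49 (adjusted p = 0.0468). By genotype, Il1rn, Ccl22, Tnf and Il1b were lower in knockout-labelled cells of the cluster, by -0.75, -2.41, -0.86 and -1.005 on the log2 scale.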
